A study of Homo sapiens with 14 samples.

Results

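Small nucleolar RNAs (snoRNAs), small Cajal body-specific RNAs (scaRNAs) and small nuclear RNAs (snRNAs) were described as the genes whose gene type in GENCODE release 44 is snoRNA, scaRNA or snRNA. They numbered 2808 of the 60876 annotated genes in the tables, or 4.61%. Of these 48 were scaRNA genes, 1836 snRNA genes and the rest snoRNA genes, each with 1 annotated transcript. Their annotated lengths ran from 50 to 791 bases, with a median of 107 bases.

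The data were 14 poly(A)-selected RNA-seq libraries of MDA-MB-231 cells, an established cell line from a triple-negative breast cancer. The labels gave 7 groups of 2 replicates: a control with no compound or time, and cells given 5 µM RBI2 or 5 µM CX-5461 with a label of 10, 30 or 120 min. Whether the controls received the vehicle DMSO is not clear, since the study's text calls them untreated in one place and a DMSO control in another. A part of the vehicle in the comparisons with the control cannot be told apart. CX-5461 is a small-molecule inhibitor of RNA polymerase I transcription, and RBI2 is the small molecule that the study tested as an inhibitor of ribosome biogenesis. The comparisons ask how the small RNAs of the nucleolus and the spliceosome differed between the compounds and from the control. Nothing in the labels said that replicates were separate cultures, so the p-values measured only the spread between these libraries, which may be technical. In such bulk libraries fewer cells of a kind and less RNA per cell cannot be told apart.

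Box C/D snoRNAs guide 2′-O-methylation of ribosomal RNA, box H/ACA snoRNAs guide the conversion of uridine to pseudouridine, and a few of each kind, U3 among them, are needed for the cleavage of pre-rRNA. scaRNAs guide the same modifications on the snRNAs of the spliceosome, which remove introns from pre-mRNA. Most human snoRNAs and scaRNAs are cut out of the introns of host genes, while 7SK, U3 and the spliceosomal snRNAs have promoters of their own. The mature RNAs carry no poly(A) tail as a rule, so poly(A) selection leaves little of them, and a read on a member can come from the mature RNA, from an extended or tailed precursor or from the host transcript. These sources cannot be told apart in the estimated reads.

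The libraries held 14112299 to 24849354 estimated reads. The mitochondrial share was 20.6% in control replicate 2, 11.3% in RBI2 120 min replicate 2 and 8.14% to 9.57% in the other 12, and transcripts with a retained intron took 4.01% to 4.67%. Of the markers of the cell line, VIM lay at 2779 to 3387 CPM and CD44 at 870 to 1252 CPM in the 14 libraries, while PGR was at 0 and ESR1 and CDH1 did not pass 0.236 and 0.295 CPM. ERBB2, whose gene product HER2 is not overexpressed in triple-negative tumours, lay at 52.5 to 77.9 CPM. CPM is counts per 1000000 after TMM scaling.

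Shares are given in RPM, reads per 1000000 reads of annotated genes. Reads were found on 405 of the 2808 members (14.4%), against 34243 of all 60876 genes (56.3%). The other 2403 members had no read in the sum of the 14 libraries, which allows up to 0.0126 RPM for each at 3 counts, counting error only. The members held 5648 of 237447168 reads of annotated genes, or 23.8 RPM. The 10 members with the most reads took 46.1% of these, 317 of the 405 held fewer than 10 reads over all libraries, and 12 had a read in every library. The estimates were whole reads, within 0.01, in every library for 333 of the 405. No 2 member entries had the same sequence, but 40 entries stood for annotated copies with the same sequence as well, such as RNU2-1 for 10 other U2 loci. Their reads belong to the copies together.

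The sequences of the members that the results turn on are shown first, read 5′ to 3′ in DNA letters from the GENCODE release 44 transcripts (GRCh38). RN7SK is the 7SK RNA, a scaffold that holds the elongation factor P-TEFb inactive, and it held the most reads of all members. It lies on the plus strand at chr6:52995621-52995948, and capitals mark GATC, found 3 times, at bases 12, 41 and 63. The first 300 of its 328 bases are shown. GATC was present in 20.4% of all members.
RN7SK: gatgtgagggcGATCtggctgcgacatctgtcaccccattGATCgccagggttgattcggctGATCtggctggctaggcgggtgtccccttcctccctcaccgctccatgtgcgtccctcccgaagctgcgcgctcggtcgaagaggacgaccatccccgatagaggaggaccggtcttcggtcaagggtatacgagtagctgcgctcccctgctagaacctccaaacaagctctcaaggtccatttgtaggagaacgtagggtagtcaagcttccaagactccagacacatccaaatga

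The next sequences belong to the snoRNAs and the scaRNA with the results below. SNORD3A (chr17:19188016-19188714, plus strand) encodes U3, and its first 218 of 699 annotated bases are shown, the stretch that matches the shorter copy SNORD3D. SCARNA7 (chr3:160514907-160515236, minus strand, intron of KPNA4) is the scaRNA with the most reads, shown from base 31 to its end at base 330. ENSG00000201882 (chrX:20136066-20136135, minus strand, intron of EIF1AX) has no symbol in the annotation. SNORD4A (chr17:28722582-28722653, plus strand, intron of RPL23A) is the member with the most reads that lies in a ribosomal protein gene. Capitals mark the first TGATGA, the letters of box C, and the last CTGA, those of box D, searched on the sense strand, and other CTGA are left in lower case. TGATGA was not found in ENSG00000201882, and that of SCARNA7 lies before the stretch shown.
SNORD3A: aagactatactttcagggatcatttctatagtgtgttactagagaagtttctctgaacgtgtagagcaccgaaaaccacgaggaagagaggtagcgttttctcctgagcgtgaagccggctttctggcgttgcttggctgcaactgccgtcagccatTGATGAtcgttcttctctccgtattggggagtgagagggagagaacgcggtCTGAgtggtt
SCARNA7: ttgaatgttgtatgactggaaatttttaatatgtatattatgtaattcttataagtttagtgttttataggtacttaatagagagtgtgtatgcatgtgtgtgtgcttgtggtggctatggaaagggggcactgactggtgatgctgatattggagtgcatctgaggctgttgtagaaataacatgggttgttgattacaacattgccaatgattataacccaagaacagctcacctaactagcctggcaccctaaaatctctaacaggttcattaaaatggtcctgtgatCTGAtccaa
ENSG00000201882: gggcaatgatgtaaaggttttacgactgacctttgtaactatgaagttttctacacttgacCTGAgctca
SNORD4A: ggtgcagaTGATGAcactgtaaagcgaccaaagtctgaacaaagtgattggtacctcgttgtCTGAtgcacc

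TGATGA with CTGA after it was present in 71.9% of the 302 SNORD genes and in 10.9% of all members. Against the 218 bases of SNORD3A, SNORD3B-2 had the 1 difference A78C and SNORD3D the 3 differences A4G, C53T and A78C, counted from the first base shown, so reads inside this stretch can be shared between the copies. The annotated SNORD3A and SNORD3B-2 transcripts extend far past the U3 RNA, to 699 and 791 bases.

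SNORA73B (chr1:28508559-28508762, plus strand, intron of RCC1) is a copy of U17, a box H/ACA RNA of pre-rRNA cleavage, and SNORA71B (chr20:38425083-38425354, minus strand, intron of SNHG17) is a box H/ACA guide. Capitals mark the last ACA, which ends 3 bases before the 3′ end of SNORA73B and 22 bases before that of SNORA71B. An ACA 3 bases before the end was found in 66.0% of the 209 SNORA genes and in 11.1% of all members.
SNORA73B: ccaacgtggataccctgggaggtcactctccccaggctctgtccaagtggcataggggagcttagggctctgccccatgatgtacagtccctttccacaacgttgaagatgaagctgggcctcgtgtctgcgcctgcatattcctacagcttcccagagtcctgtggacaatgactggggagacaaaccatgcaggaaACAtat
SNORA71B: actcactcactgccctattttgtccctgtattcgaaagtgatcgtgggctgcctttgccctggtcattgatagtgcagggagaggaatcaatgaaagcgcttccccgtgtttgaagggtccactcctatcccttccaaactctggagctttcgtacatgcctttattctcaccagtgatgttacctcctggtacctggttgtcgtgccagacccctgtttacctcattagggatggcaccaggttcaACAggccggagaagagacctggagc

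RNVU1-28 (chr1:144560666-144560829, minus strand) is a variant U1 snRNA gene. Capitals mark ATTTNTGG, letters of the kind of site on which the ring of Sm proteins assembles, found in 53.0% of the 132 genes with a U1 name and in 6.15% of all snRNA genes.
RNVU1-28: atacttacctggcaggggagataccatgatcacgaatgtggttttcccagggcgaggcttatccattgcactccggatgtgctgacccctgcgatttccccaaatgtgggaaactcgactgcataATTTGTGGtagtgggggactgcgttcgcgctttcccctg

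The share of reads on the members was higher in the RBI2 libraries than in the CX-5461 libraries for snoRNAs, and highest with RBI2 at the 120 min label. All members together took 20.3 and 15.2 RPM in the controls. The CX-5461 libraries held 14.3 and 16.8 RPM for the 10 min label, then 20.5 and 23.1 for 30 min and 17.2 and 17.1 for 120 min. With RBI2 they took 22.3 and 25.0, then 23.2 and 24.3, then 42.2 and 60.9 RPM. The RBI2 mean was 33.0 ± 15.6 (SD, n = 6) and the CX-5461 mean 18.2 ± 3.12 (SD, n = 6), and the groups overlapped in 1 RBI2 library at 22.3 and 1 CX-5461 library at 23.1. The difference of 14.8 RPM was 9.22 without RBI2 120 min replicate 2 and 5.02 without the 120 min libraries. RBI2 120 min replicate 2, the highest here, also had the second highest mitochondrial share, and over reads outside the mitochondrial genome the difference was 16.6 RPM. The 95% Clopper-Pearson interval of counting error was 12.7 to 16.2 for the lowest library, CX-5461 10 min replicate 1, and 56.9 to 65.2 for the highest, RBI2 120 min replicate 2. PCR reads are not independent molecules, so such intervals cover counting error only. These totals were chosen with earlier results of the data known and are given without a p-value. The paper reported more rRNA reads after poly(A) selection in the RBI2 libraries than in the control and CX-5461 libraries, at every label. A higher share of RNAs without a tail was thus not particular to the members. The part of that difference between libraries in the values here and below was not tested.

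snoRNA genes carried 51.3% of the members' reads. Their share was 10.7 and 6.20 RPM in the controls, 5.88 to 12.5 in the 6 CX-5461 libraries and 12.8 to 23.9 in the 6 RBI2 libraries. No RBI2 library overlapped a CX-5461 or control library. The closest pair was RBI2 10 min replicate 1 at 12.8 and CX-5461 30 min replicate 2 at 12.5, with 95% Clopper-Pearson intervals of 11.1 to 14.6 and 10.8 to 14.4 that overlapped nearly throughout. As summed TPM the compounds overlapped, with the lowest RBI2 library at 375 and the highest CX-5461 library at 434. The means were 16.6 ± 4.69 and 9.56 ± 2.79 (SD, n = 6), a ratio of 1.74. Without the 120 min libraries, an alternative chosen after seeing the data, the difference of the means fell from 7.07 to 4.25 RPM.

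Both families of snoRNA were part of this. SNORD genes took 6.02 to 11.7 RPM with RBI2, 2.89 to 6.98 with CX-5461 and 5.95 and 2.93 in the controls. SNORA genes took 4.22 to 8.85 with RBI2, 1.80 to 4.31 with CX-5461 and 3.81 and 2.65 in the controls. The RBI2 and CX-5461 ranges of each family overlapped, at the 30 min label of CX-5461.

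**Figure D1:**
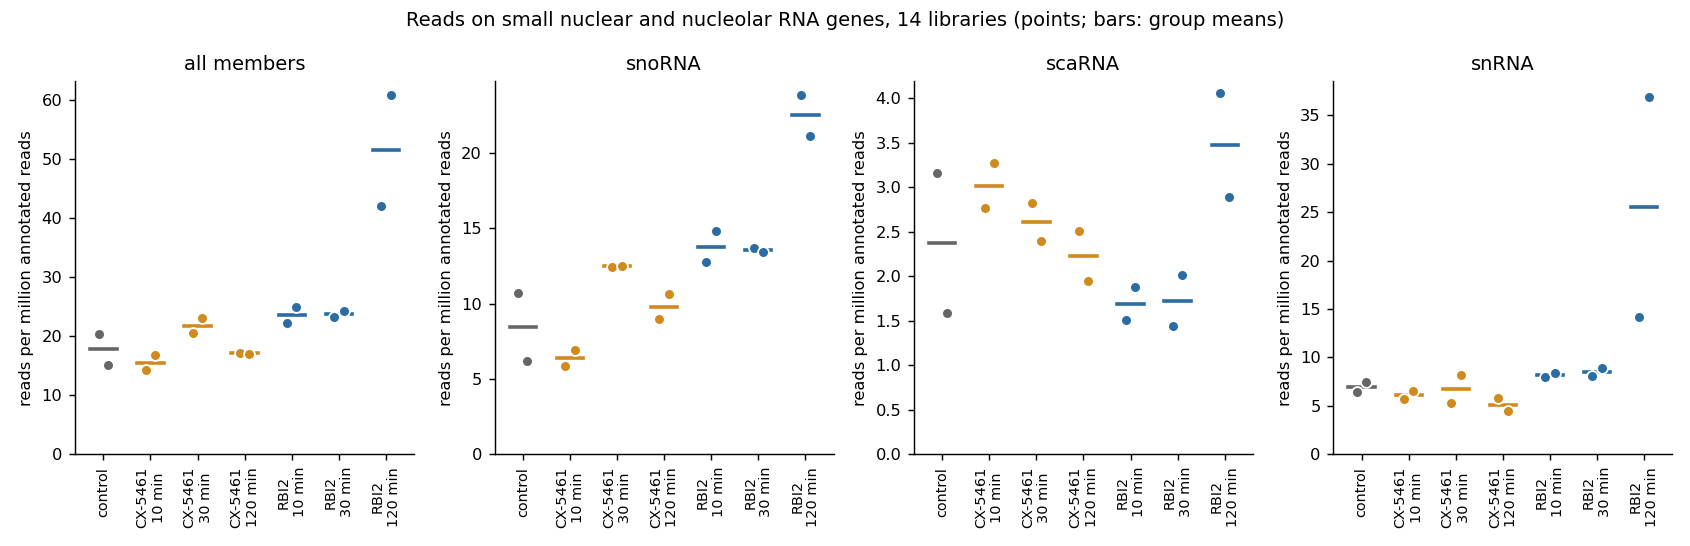
Reads on all members and on each class, in RPM (y axis, linear), in 7 groups (x axis). Points are libraries and bars are group means. The 6 RBI2 libraries lie at 12.8 to 23.9 for snoRNA, above the other 8 libraries, and RBI2 120 min replicate 2 stands apart for snRNA at 36.9.

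scaRNA genes took 1.51, 1.87, 1.44 and 2.01 RPM with RBI2 at 10 and 30 min, below the 2.76, 3.27, 2.82 and 2.40 of CX-5461, with no overlap. SCARNA7 alone held 343 of the 578 scaRNA reads. The genes with a SCARNA name overlapped between the compounds at these labels, at 1.44 to 2.74 RPM with RBI2 against 2.49 to 3.41 with CX-5461. At 120 min the order was the other way, 4.06 and 2.88 with RBI2 against 2.51 and 1.95. The controls, at 3.15 and 1.58, overlapped both compounds.

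snRNA genes took 6.47 and 7.41 RPM in the controls, 4.47 to 8.20 with CX-5461 and 7.98 to 36.9 with RBI2. Of the 6 RBI2 libraries, 5 lay at 14.2 or lower, and the highest was 120 min replicate 2. RN7SK alone made up most of the difference between the compounds: without it the difference of the snRNA means fell from 8.07 to 2.76 RPM, with RBI2 at 2.72 to 15.5 and CX-5461 at 2.04 to 3.83. In all members without RN7SK the ranges were 18.1 to 39.5 with RBI2 and 12.5 to 18.5 with CX-5461, again with an overlap. Without RN7SK and the genes with a U1, U2 or U6 name, a setting chosen after seeing the data, the difference was 0.280 RPM for snRNA and 7.03 RPM for all members.

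How many members were seen also differed between groups. A member counted as seen in a group if both libraries held at least 1 estimated read. This was met by 38 members in the control, by 27, 54 and 55 with CX-5461 at 10, 30 and 120 min and by 60, 59 and 70 with RBI2. Over all groups 141 members were seen in at least 1 group, namely 92 snoRNA, 6 scaRNA and 43 snRNA genes, and 12 in every group. After scaling to the smallest library the numbers were 21, then 12, 30 and 29, then 29, 33 and 55. On that scale RBI2 at 10 and 30 min lay close to CX-5461 at 30 and 120 min, and RBI2 at 120 min remained the highest. The same counts over all genes are not given, so the difference is not read as particular to the members.

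Reads gathered on snoRNAs inside other genes. Of the 60 snoRNA genes on the strand of a ribosomal protein gene, 28 (46.7%) had a read, as had 130 of 391 (33.2%) inside other genes. The share was 12 of 122 (9.84%) inside SNHG genes, GAS5 or DANCR, long non-coding hosts of snoRNAs, and 17 of 351 (4.84%) with no gene of another type on the strand. Repeated snoRNA copies, such as SNORD115-9, SNORD115-11 and SNORD115-17 without a read, counted as separate genes. Their part in these shares was not tested. Members in an exon of another gene numbered 304, of which 75 had 2130 reads, and a read there may be one of the host's mRNA. RN7SK, whose other gene is the 7SK entry listed at 0, held 1152.6 of these 2130 reads. Members in introns only numbered 958, and 255 of these held 2564 reads. The remaining 1546 lay in no other gene, and 75 of these held 953 reads.

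Longer members were seen more often. Of the 87 members of 200 bases or more 28 (32.2%) had a read, and they held 42.1% of all reads on members, or 27.3% without RN7SK. Reads were seen on 305 of 2027 members from 100 to under 200 bases and on 72 of 694 (10.4%) below 100 bases. The median effective length, which is the number of positions a fragment can start from, was 47 bases. Its part in the difference by length was not tested.

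**Figure D2:**
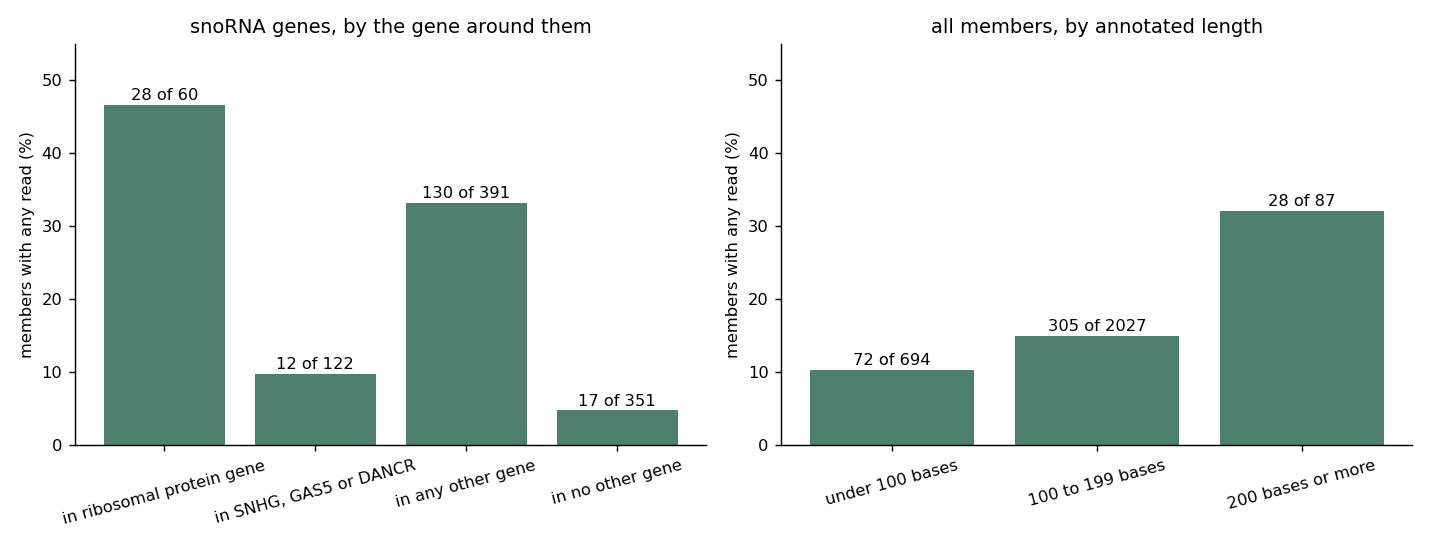
Members with any read in the 14 libraries, in percent (y axis, linear from 0), for snoRNA genes by the gene around them (left) and for all members by annotated length (right). The numbers above the bars give members with reads of all members; 28 of 60 snoRNA genes in ribosomal protein genes had a read.

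snoRNAs in ribosomal protein genes took 3.28 and 1.77 RPM in the controls, 0.958 to 4.71 with CX-5461 and 3.41 to 6.86 with RBI2. The CX-5461 libraries at 30 min, at 4.71 and 4.29, lay as high as RBI2 at 30 min, at 4.28 and 3.91. SNORD4A, a guide in RPL23A, was at 0.808 and 0.240 CPM in the controls, 0.278 to 1.13 with CX-5461 and 0.330 to 1.18 with RBI2. Those ranges overlapped nearly throughout, and SNORD4A passed the test in no comparison.

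Level per length ranked the members in another order than their reads. On the scale of mean CPM per kilobase of annotated length over the 14 libraries, RN7SK was first at 15.7, followed by SNORD4A at 9.17, ENSG00000201882 at 7.24, SNORD36A at 6.84 and SNORD104 at 6.20. The order pooled all groups: in the CX-5461 libraries alone RN7SK was at 8.67 and SNORD4A at 10.3 CPM per kilobase, and with RBI2 at 24.8 and 8.68. RNVU1-28 stood at 5.50, SCARNA7 at 4.41 and SNORD3A at 1.16. The CPM of SNORD4A, ENSG00000201882 and SNORD104 had SDs over the 14 libraries of 0.306, 0.309 and 0.221 CPM around means of 0.660, 0.507 and 0.434 CPM, so their order was within the spread.

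Few members held enough reads for a test. The 6 treated groups were set against the control, and the compounds against each other within a label, in 1 edgeR quasi-likelihood model of 14 libraries and 15426 genes that passed the filter on low counts, among them 15 members. A gene was called with a Benjamini-Hochberg adjusted p under 0.05 over all genes tested, if it also changed by 1 or more on the log2 scale in either direction. Passing did not follow the total of reads, since a member could pass through high values in as few as 2 libraries. Of the 15 members 7 reached the level of the filter, 0.620 CPM before TMM scaling, in 2 libraries only when those of RBI2 were counted, namely SNORA71B, SNORA73B, ENSG00000201882, RNVU1-28, SNORA33, SNORD104 and SNORD3B-2. A high level with RBI2 was thus part of how they passed, which their adjusted p values below do not take into account. No median over the members that passed is given, and their counts of calls below are descriptions that are not read against the share of all genes called. Counts of members at an unadjusted p under 0.05 are descriptions too. The share of all genes at that level is not given, so they are not read as an excess.

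At the 120 min label RN7SK, SNORD3A, SNORA71B and ENSG00000201882 were called higher with RBI2 than in the control and no member lower, by edgeR. These were 4 of the 15 members tested, and 1.82% of all genes were called, 1.42% higher. SNORA71B and ENSG00000201882 passed the filter only with the RBI2 libraries counted. A total of 6 members had an unadjusted p under 0.05, in a comparison where 18% of all genes passed even an adjusted p of 0.05 at any fold change. DESeq2 called RN7SK and gave no adjusted p for the other 14, SNORD3A, SNORA71B and ENSG00000201882 among them.

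RN7SK was at 3.17 and 2.80 CPM in the controls. The pairs of CX-5461 libraries read 1.83 and 3.50, then 3.20 and 4.52, then 2.57 and 1.45 CPM in the order of the labels. With RBI2 it was at 4.13 and 5.56, then 4.21 and 4.35, then 8.85 and 21.7 CPM. Both RBI2 libraries at 120 min lay above all other libraries, and replicate 2 stood far above replicate 1. The log2 fold change against the control was 2.34 ± 0.44 (SE, edgeR adjusted p = 0.0120). Without RBI2 120 min replicate 2 it was 1.57 with an edgeR adjusted p of 0.0687, and with any other library left out RN7SK remained called. The call was also lost with only the 4 libraries in the model (edgeR adjusted p = 0.301). A second entry for the same place, named 7SK with 3 more bases, was listed at 0 in all 14 libraries, and 291 RN7SKP pseudogenes together held 16.4 to 33.8 reads per library against 25.0 to 299.8 on RN7SK.

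SNORD3A, the U3 gene, was at 0.311 and 0 CPM in the controls, 0 to 0.856 with CX-5461, 0.486 to 1.08 in the earlier RBI2 libraries, and 1.83 and 3.55 in those of 120 min. The latter libraries lay above all the others. With no filter on low counts edgeR called SNORD3A higher than the control with CX-5461 at 120 min and RBI2 at 30 min as well. With the filter the log2 fold change for RBI2 at 120 min was 3.91 ± 1.01 (SE, edgeR adjusted p = 0.0287), resting on 80.0 estimated reads against 5.08. Without control replicate 1 the value was 8.51, a fit to a control at 0, and without control replicate 2 it was 3.05 with an edgeR adjusted p of 0.0927. The call was also lost without RBI2 120 min replicate 1 (0.0941), without replicate 2 (0.123), with a length offset (0.0901) and with only the 4 libraries in the model (0.301).

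SNORA71B was at 0.186 and 0.0799 CPM in the controls and at 1.00 and 0.942 CPM with RBI2 at 120 min, with no overlap. Its log2 change was 2.75 ± 0.80 (SE, edgeR adjusted p = 0.0398), from 30 reads against 4. The call was lost without any 1 of 11 of the 14 libraries, at adjusted p values of up to 0.165 without RBI2 120 min replicate 1, and kept without control replicate 1, RBI2 10 min replicate 1 or RBI2 10 min replicate 2. It was also lost with a length offset (0.0975) and with only the 4 libraries in the model (0.301). Its host SNHG17 had a log2 fold change of 0.58 ± 0.11 (SE, adjusted p = 0.0125) in the same comparison.

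ENSG00000201882 was at 0.186 and 0.240 CPM in the controls and at 1.06 and 0.942 CPM with RBI2 at 120 min, and had 1.09 CPM in RBI2 10 min replicate 1 as well. This was a log2 difference of 2.22 ± 0.57 (SE, edgeR adjusted p = 0.0287), from 31 reads against 6. The edgeR adjusted p was 0.0639 and 0.0912 without control replicate 1 or 2, and 0.143 and 0.0918 without RBI2 120 min replicate 1 or 2. The call was also lost with a length offset (0.0693) and with only the 4 libraries in the model (0.301). Its host EIF1AX, a translation initiation factor, had a log2 fold change of -0.06 ± 0.13 (SE, adjusted p = 0.793).

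**Figure D3:**
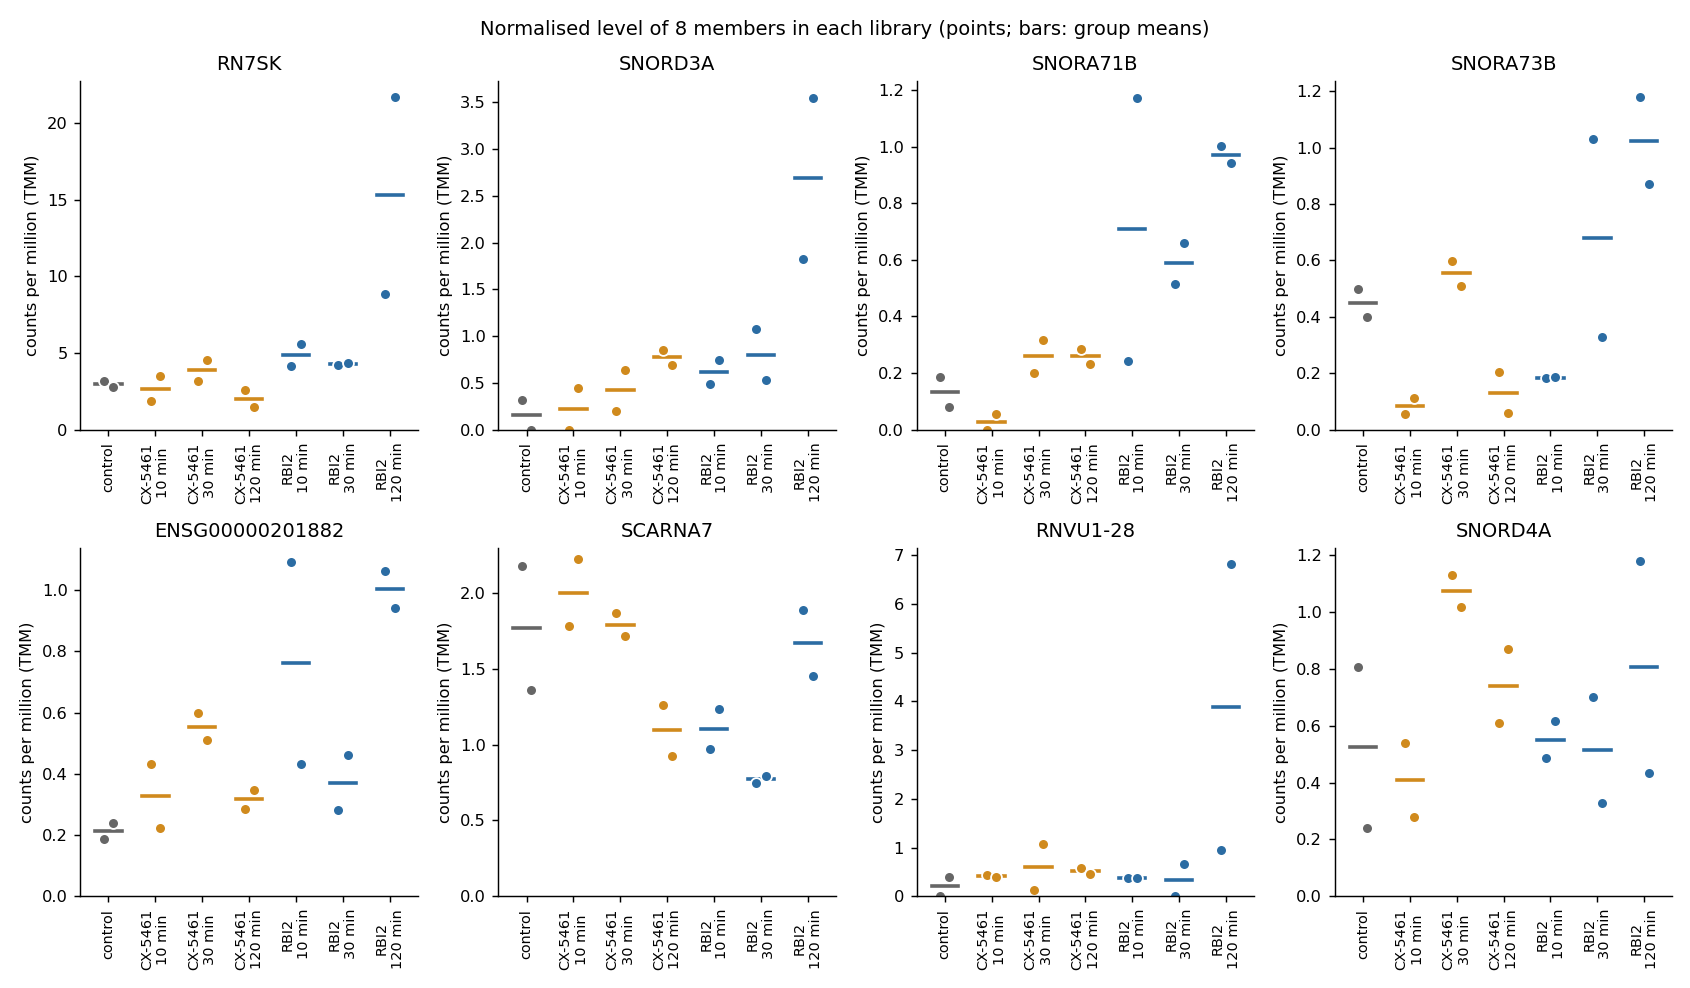
Normalised level (CPM after TMM scaling, y axis, linear, one scale per panel) of 8 members in the 7 groups (x axis). Points are libraries and bars are group means. RN7SK reached 8.85 and 21.7 CPM with RBI2 at 120 min, while SNORD4A ran from 0.278 to 1.13 CPM with CX-5461 and from 0.330 to 1.18 CPM with RBI2.

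RBI2 and CX-5461 were compared at matched dose and label in 3 comparisons, and over all labels in a model of the 12 treated libraries with the label as a term. The structures of the compounds were not compared. At 120 min RN7SK, SNORA73B and ENSG00000201882 were called higher with RBI2 and no member lower (edgeR). These were 3 of 15 members, and 1.67% of all genes were called, 1.27% higher. SNORA73B and ENSG00000201882 passed the filter only with the RBI2 libraries counted. DESeq2 called RN7SK and gave no adjusted p for 13 members, these 2 among them.

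RN7SK was higher with RBI2 than with CX-5461 at 120 min by a log2 fold change of 2.89 ± 0.44 (SE, edgeR adjusted p = 0.00693), from 449.4 reads against 88.1. The groups were far apart, at 8.85 and 21.7 against 2.57 and 1.45 CPM. The edgeR adjusted p was 0.0575 without CX-5461 120 min replicate 2 and 0.0583 without RBI2 120 min replicate 2, with log2 fold changes of 2.60 and 2.12.

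SNORA73B was at 1.18 and 0.870 CPM with RBI2 and at 0.204 and 0.0579 CPM with CX-5461 at 120 min. The log2 fold change was 2.81 ± 0.63 (SE, edgeR adjusted p = 0.0175), from 32 reads against 6. The controls, at 0.497 and 0.399 CPM, lay between the compounds, and neither compound was called against them for this gene. The call was lost without CX-5461 120 min replicate 2 and without RBI2 120 min replicate 1 or 2, at adjusted p values of 0.125, 0.119 and 0.0769. Its host RCC1, the exchange factor of the GTPase Ran, had a log2 fold change of 0.04 ± 0.07 (SE, adjusted p = 0.751).

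ENSG00000201882 was the third, at 1.06 and 0.942 CPM against 0.285 and 0.348 CPM. The log2 fold change was 1.66 ± 0.51 (SE, edgeR adjusted p = 0.0489), close to the threshold, and 10 of the 14 fits with a library left out lost the call, with adjusted p values of up to 0.217 without CX-5461 120 min replicate 1. It was kept without either control or either RBI2 10 min library. The call was also lost with the replicate block (0.0574), with a length offset (0.0999) and with no filter on low counts (0.0539). EIF1AX was at -0.29 ± 0.13 (SE, adjusted p = 0.162) here.

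At 10 min SNORA71B was the 1 member of 15 called, higher with RBI2, having passed the filter only through RBI2 libraries. Over all genes 1.04% were called and 0.635% higher. It held 23 reads in the RBI2 libraries, at 0.243 and 1.17 CPM, and 1 read in the CX-5461 libraries, at 0 and 0.0556 CPM. The ratio was 25.7, with an exact 95% interval of counting error from 4.17 to 1057. The fitted log2 fold change was 4.36 ± 1.01 (SE, edgeR adjusted p = 0.0460), and 11 of the 14 fits with a library left out lost the call, with adjusted p values of up to 0.427 without RBI2 10 min replicate 2. The value ran from 2.85 to 6.59 over these fits, the latter without CX-5461 10 min replicate 2. The call was kept without either control or without RBI2 10 min replicate 1, and lost with the replicate block (0.0579) and a length offset (0.0788). In a model of the 4 libraries alone the gene was not tested, and DESeq2 gave it no adjusted p. SNHG17 was higher as well, by 1.23 on the log2 scale (edgeR adjusted p = 0.000194).

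Over all labels SNORA71B was again the 1 member called of 14 tested by edgeR, and again a member that passed only through RBI2 libraries. Over all genes 0.965% were called, 0.868% higher. It was at 0.243 to 1.17 CPM (median 0.801) in the 6 RBI2 libraries and 0 to 0.318 CPM (median 0.216) in the 6 CX-5461 libraries, and the ranges overlapped in 1 RBI2 library. On the log2 scale the difference was 2.09 ± 0.50 (SE, edgeR adjusted p = 0.0264), from 74 reads against 20. The call was lost without 7 of the 12 libraries, at adjusted p values of up to 0.0693, that without CX-5461 120 min replicate 1. It was kept without CX-5461 10 min replicate 1, CX-5461 30 min replicate 2, RBI2 30 min replicate 1 or either RBI2 10 min library. SNHG17 was also higher with RBI2, by 0.75 ± 0.13 (SE, log2, adjusted p = 0.00588). DESeq2 called SNORD3A and RN7SK as well in this comparison.

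At 30 min no member of 15 was called between the compounds by edgeR, where 0.013% of all genes were called, and 1 member had an unadjusted p under 0.05, SCARNA7. DESeq2 called none and gave no adjusted p for 12 of the 15.

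**Figure D4:**
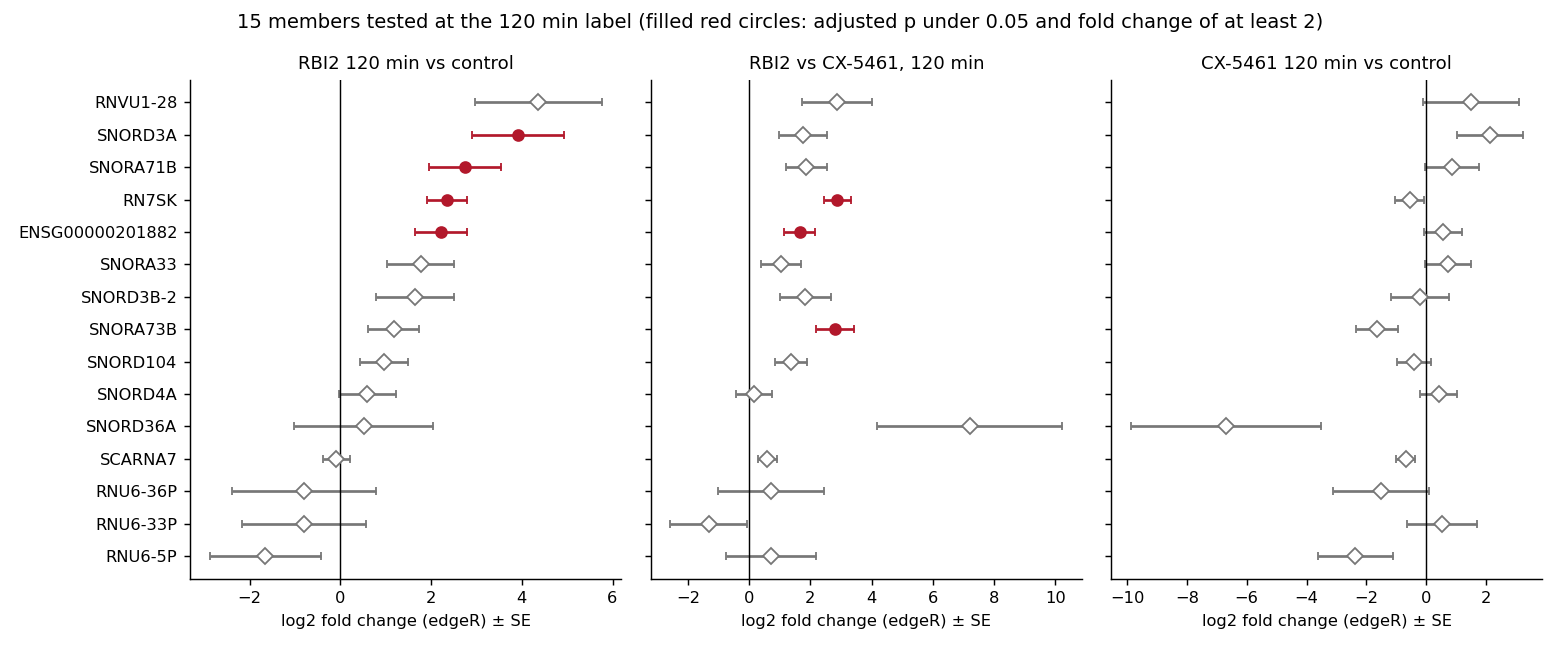
log2 fold changes (x axis, edgeR) with standard errors of the 15 members tested, in 3 comparisons at the 120 min label; the x axes differ between panels. Filled red circles passed both thresholds, such as RN7SK at 2.34 and 2.89, and open diamonds did not. Of the filled circles, SNORA71B, SNORA73B and ENSG00000201882 entered the test only with the RBI2 libraries counted.

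CX-5461 was set against the control in the same fit, and no member of 15 was called at 10, 30 or 120 min by edgeR. The shares of all genes called were 1.64%, 0% and 0.0454%. The members with an unadjusted p under 0.05 numbered 2, 1 and 2, and DESeq2 called none, with no adjusted p for 13, 0 and 15 of them. RBI2 at 10 and 30 min gave no call against the control either, where 0.0778% and 0.0389% of all genes were called, with 3 and 2 members at an unadjusted p under 0.05 and none called by DESeq2, which gave no adjusted p for 13 and 15 of them.

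The snoRNAs of pre-rRNA cleavage were read as a list of their own: U3, U8, U13, U14, U22 and U17 genes. The list held 17 genes, of which 9 had a read and 3 were tested, SNORD3A, SNORD3B-2 and SNORA73B. Their summed share was 1.65 and 0.683 RPM in the controls, 1.08 to 2.21 with CX-5461 and 2.35 to 5.47 with RBI2. No RBI2 library overlapped another group, and the highest were the 120 min libraries at 4.68 and 5.47. The snoRNAs with a U3 name alone took 1.37 to 5.04 with RBI2 and 0.747 to 1.75 with CX-5461, which overlapped.

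SNORD3B-2, a second U3 gene, was at 0.249 and 0.399 CPM in the controls and 0.0666 to 0.945 with CX-5461. With RBI2 it was at 0.425 and 1.3, then 0.374 and 0.858, then 1.06 and 0.942 CPM in the order of the labels. Its highest library was RBI2 10 min replicate 2, and the ranges of the compounds overlapped. It passed the test in no comparison, with a log2 fold change of 1.64 ± 0.86 (SE, edgeR adjusted p = 0.198) for RBI2 at 120 min against the control. With no filter on low counts edgeR called it higher with RBI2 than with CX-5461 at 120 min and over all labels. SNORD3D held 31.0 reads in 5 libraries and none in the other 9. SNORD14A, U14 in an intron of RPS13, held 52 reads in 11 libraries and SNORD13, U13, 5 reads.

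SCARNA7 was at 2.18 and 1.36 CPM in the controls and at 1.78 and 2.22, 1.86 and 1.72, then 1.26 and 0.927 CPM with CX-5461. With RBI2 it was at 0.971 and 1.24, then 0.748 and 0.792, then 1.89 and 1.45 CPM. RBI2 lay below CX-5461 at 10 and 30 min and above it at 120 min, without an overlap at any label. The log2 fold changes between the compounds were -0.85, -1.21 and 0.60, none of them called, with edgeR adjusted p values of 0.206, 0.409 and 0.211.

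The test of whether the difference between the compounds varied over the labels called SCARNA7 (edgeR interaction, adjusted p = 0.0283) and RN7SK (adjusted p = 0.0328). A call here needed an adjusted p under 0.05 alone, without the limit on the fold change. These were 2 of 14 members, where 13% of all genes were called. DESeq2 called RN7SK and gave no adjusted p for the other 13, SCARNA7 among them. KPNA4, the host of SCARNA7 that encodes an importin, had an adjusted p of 0.0386 in the same test. SCARNA22, in an exon of NSD2, lay below CX-5461 in the earlier RBI2 libraries, at 0.121 to 0.281 against 0.266 to 0.500 CPM, with an overlap, and did not pass the filter on low counts.

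Among the spliceosomal snRNAs RNVU1-28 held the most reads, of which RBI2 120 min replicate 2 held 94.3 of 193.4. It was at 0 and 0.399 CPM in the controls, 0.133 to 1.08 with CX-5461, 0 to 0.660 in the earlier RBI2 libraries, and 0.944 and 6.81 in those of 120 min. The log2 fold change against the control was 4.36 ± 1.40 (SE, edgeR adjusted p = 0.0539), which did not pass, while edgeR called it higher with the replicate block and with no filter on low counts. The 132 genes with a U1 name took 8.34 RPM in RBI2 120 min replicate 2, most of it RNVU1-28, against 0.543 to 1.85 in the other 13 libraries. Without RNVU1-28 they took 1.59 RPM there and 0.187 to 0.898 in the other 13.

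RNU2-1, which stands for 10 more U2 loci of the same sequence, was at 0 in both controls, 0 to 0.377 CPM with CX-5461 and 0.187 to 1.74 CPM with RBI2. The highest value was again RBI2 120 min replicate 2. Another entry named U2 ran the other way, at 0.435 and 0.240 CPM in the controls and 0 in all 6 RBI2 libraries. Genes with a U2 name together took 0.558 and 0.205 RPM in the controls and 0.412 to 0.718 in the RBI2 libraries other than 120 min replicate 2, which held 2.65. Over all labels the log2 fold change of RNU2-1 between the compounds was 2.03 ± 0.73 (SE, edgeR adjusted p = 0.101), which did not pass, while edgeR called it with no filter on low counts. Genes with a U4 or U5 name held 62.2 and 14.9 reads in all.

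U6 names are the most numerous, with 1268 genes, of which 126 had a read, and they are mostly pseudogenes. Their summed share was 1.74 and 3.67 RPM in the controls, 1.02 to 2.03 with CX-5461 and 1.48 to 3.58 with RBI2, with the groups overlapping. RNU6-5P was at 0.621 and 0.879 CPM in the controls, 0 to 1.08 with CX-5461 and 0.0618 to 0.362 with RBI2. With no filter on low counts edgeR called it lower with RBI2 at 10 min than in the control. The RBI2 libraries of RNU6-33P and RNU6-36P lay within the range of the controls, at 0 and 0.879 CPM.

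SNORD36A, which lies in an exon of RPL7A, varied between libraries, with 0 in 7 of them and 6.9 to 30.6 reads in the others. It was at 0.932 and 0.559 CPM in the controls and at 0 in the 4 CX-5461 libraries of 10 and 120 min. At 120 min 1 RBI2 library held 30.6 reads while the other and both CX-5461 libraries were at 0. It was not called (edgeR adjusted p = 0.142), but with no filter on low counts edgeR called it higher with RBI2 than with CX-5461 at 10 and 120 min and over all labels. In that setting it was called lower with CX-5461 than in the control at 10 and 120 min, and RBI2 was not called against the control at any label. RPL7A differed between the compounds there by 0.05 ± 0.10 (SE, log2, edgeR adjusted p = 0.809).

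The minor spliceosome and histone pre-mRNA processing were hardly seen. Of its 4 genes RNU6ATAC held 8 reads and RNU4ATAC 1 read, and RNU7-1, the U7 snRNA of histone 3′ end formation, held none in 14 libraries. Reads on the histone genes themselves took 353 to 515 RPM.

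The proteins that make, carry and trim these RNAs were read in 8 lists of 64 genes, all of which were tested. The lists were box C/D and box H/ACA core proteins, snoRNP assembly factors, the SNAPC complex of snRNA transcription, Integrator, the Sm proteins, the SMN complex and factors of 3′ tailing and trimming. None of their 640 gene and comparison pairs was called, and the median absolute log2 fold change was 0.14. The core proteins of box C/D RNAs (NOP56, NOP58, FBL, SNU13) and of box H/ACA RNAs (DKC1, GAR1, NHP2, NOP10) had no adjusted p under 0.05 except NOP56 with CX-5461 at 10 min, where 4.77% of all genes passed, at -0.27 ± 0.06 (SE, log2, edgeR adjusted p = 0.0335).

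With the limit on the fold change lifted, 16 of the 64 genes passed an adjusted p of 0.05 for RBI2 at 120 min against the control, 3 higher and 13 lower, where 18% of all genes passed, 8.9% higher and 9.07% lower. The tailing and trimming list had 6 of 11 lower and none higher: DIS3 and EXOSC10, the nucleases of the nuclear exosome, its helicase MTREX, RBM7 of the NEXT complex, ZCCHC7 of the TRAMP complex and the poly(A) polymerase TENT4A. Control replicate 2, the library with the mitochondrial share of 20.6%, stood above replicate 1 for all 6, as for EXOSC10 at 184 against 125 CPM, and its part in the count was not tested. Against CX-5461 at 120 min 3 of the 11 were lower and none higher (MTREX, RBM7 and DIS3), where 16.1% of all genes passed, 10.9% lower. At 10 min the order was the other way for RBM7, the 1 gene of the list that passed, which was higher with RBI2 than with CX-5461 (0.51 ± 0.12 on the log2 scale, SE, edgeR adjusted p = 0.0441), where 3.06% of all genes passed. There CX-5461 lay below the control for RBM7 (-0.73 ± 0.12 on the log2 scale, SE, edgeR adjusted p = 0.00578). CX-5461 libraries reached like levels at other labels, with RBM7 at 35.2 and 32.6 CPM at 10 min and EXOSC10 at 112 and 114 CPM at 30 min. DIS3 was at 76.4 and 103 CPM in the controls and at 55.2 and 54.9 CPM with RBI2 at 120 min (log2 fold change -0.70 ± 0.15, SE, edgeR adjusted p = 0.0166). RBM7 was at 49.8 and 63.2 CPM in the controls and at 37.3 and 39.1 CPM (log2 fold change -0.56 ± 0.12, SE, edgeR adjusted p = 0.0157).

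The largest subunit of Integrator, INTS1, was higher, at 113 and 99.9 CPM against 62.8 and 49.9 CPM (log2 fold change 0.91 ± 0.12, SE, edgeR adjusted p = 0.00456). INTS6, INTS7 and INTS8 were lower, with INTS6 at 29.0 and 29.4 CPM against 34.5 and 53.5 CPM in control replicates 1 and 2. In the SMN complex, which loads Sm proteins on snRNAs, DDX20 and STRAP were lower and GEMIN4 was higher. GEMIN4 was at 135 and 124 CPM against 113 and 77.5 CPM in the controls, and at 105 to 124 CPM with CX-5461. Of the 5 genes of the snRNA promoter complex 1 was higher and 1 lower. SNAPC4 was higher, at 50.0 and 51.5 CPM against 34.2 and 29.2 CPM (0.67 ± 0.11 on the log2 scale, SE, edgeR adjusted p = 0.00782). At 10 min its RBI2 libraries, at 23.0 and 27.4 CPM, lay below the controls and did not pass (edgeR adjusted p = 0.284), while against CX-5461 at 41.1 and 41.0 CPM they were lower (-0.70 ± 0.11 on the log2 scale, SE, edgeR adjusted p = 0.00561). SNAPC1 was lower with RBI2 at 120 min, at 113 and 108 CPM against 124 and 148 CPM (-0.30 ± 0.08 on the log2 scale, SE, edgeR adjusted p = 0.0357). For each gene here that passed against the control, control replicate 2 lay further from the RBI2 120 min libraries than replicate 1. The part of control replicate 2 was not tested. SMN1 and SMN2 are near-identical copies whose reads cannot be assigned with certainty, and neither passed.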

How the data were processed

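The study prepared poly(A) RNA libraries with a stranded mRNA kit. Per its methods, the authors first aligned reads to the human ribosomal DNA repeat and quantified the remaining reads on GRCh38 transcripts with Salmon. The submitters' processing notes list STAR 2.7.6a, SAMtools 1.11, bedtools 2.29.2, Salmon 1.3.0 and DESeq2 1.28.1. The authors deposited estimated counts and TPM for each transcript and library.

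Transcript identifiers were matched without version to GENCODE release 44, which may not be the release used for the quantification. Of 228754 transcripts 225662 matched, 214947 of them in the same version, and 3092 did not and were left out. Estimated counts were summed per gene and rounded to whole numbers for the tests, while shares used the unrounded sums over the reads of annotated genes. Members and lists were chosen with earlier results of these data known. Planned permutation tests of the class totals are therefore not quoted.

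Genes were filtered with filterByExpr at a minimum count of 10, scaled by TMM and tested with the quasi-likelihood test of edgeR 4.0.16 in R 4.3.3, with Benjamini-Hochberg adjustment over all genes. DESeq2 1.42.0 was an alternative. The steps were run on simulated data with known changes. Every simulated gene had the same spread beyond counting error, a coefficient of variation of 12.3%, so members with a wider spread were not covered. Named members were the 12 snoRNA, 5 scaRNA and 12 snRNA genes with the highest mean CPM, every member called, tested members of the lists by role, and their host genes. Other members named with reads, SNORD3D, SNORD14A, SNORD13, RNU6ATAC, RNU4ATAC and RNU7-1, and the pathway genes named without the limit on fold change, were chosen after their values were seen. Intervals are exact Clopper-Pearson. The sequences and single levels of some snRNA copies are not reported here.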

Additional observations from a re-analysis of the deposited data

Results flagged for a closer look

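The difference between RBI2 and CX-5461 varied between the 10, 30 and 120 min labels for 2 of 14 members in the edgeR interaction test. For SCARNA7 the adjusted p was 0.0283, with log2 differences (RBI2 over CX-5461) of -0.85, -1.21 and 0.60. For RN7SK the adjusted p was 0.0328, with log2 differences of 0.86, 0.15 and 2.89. Over all genes tested 13% passed this test, and the 2 of 14 are not a result about the members as a group. DESeq2 gave no adjusted p for SCARNA7.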

How the results depend on the processing

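Differences in class shares between RBI2 and CX-5461 kept their direction for all members, snoRNA and snRNA under every alternative run. Without the 120 min libraries (chosen after seeing the data) they were 5.02, 4.25 and 1.88 RPM, against 14.8, 7.07 and 8.07. For snRNA the difference was 2.76 without RN7SK, 2.34 for members in no exon and 0.280 without RN7SK and the U1, U2 and U6 names, where it was 7.03 for all members. With 1 library left out it was 9.22 to 17.0 for all members and 3.50 to 9.29 for snRNA. CX-5461 against the control changed sign at 120 min, from -0.610 to 0.210 RPM without RN7SK. It was also above 0 as summed TPM, at 42.2 TPM between means of 387 and 344. With 1 library left out the difference in RPM was -3.18 to 1.96 at 120 min and -4.79 to 0.359 at 10 min, reversed without control replicate 1. The mean share over 14 libraries was 24.5 (all), 12.4 (snoRNA), 2.44 (scaRNA) and 9.59 RPM (snRNA). For members in no exon it was 15.1, 9.26 and 1.72 RPM (all, snoRNA, scaRNA). As summed TPM the means were 487, 347, 25.0 and 115 (all, snoRNA, scaRNA, snRNA). TPM is scaled by length, so its sizes cannot be set against those in RPM.

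Members with reads in both libraries of a group (92 snoRNA, 6 scaRNA, 43 snRNA) numbered 9, 1 and 3 at 10 reads, 187, 20 and 191 in either library, and 59, 3 and 15 after scaling. Without 1 library, scaRNA gave 6 to 10 and snRNA 52 to 75.

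Members called by edgeR with no filter on low counts numbered 2 for CX-5461 at 10 and at 120 min, 2 for RBI2 at 10 and at 30 min and 8 at 120 min against the control. Between compounds they numbered 2 at 10 min, 10 at 120 min, 13 over all labels and 5 for the interaction. These fits tested 400 members, or 381 over all labels and for the interaction, against 15 or 14 with the filter. Their counts are thus not comparable with those above. The share of all genes called is not given for them or for the other settings in this section. No count in this section is therefore read as a result about the members as a group. With unadjusted p and the limit on fold change, the counts were 2, 1 and 1 for CX-5461 at 10, 30 and 120 min, 2 and 2 for RBI2 at 10 and 30 min, and 3, 1, 8 and 6 between compounds at 10, 30 and 120 min and over all labels. DESeq2 called 1 for RBI2 at 120 min, and 0 at 10 min, 1 at 120 min, 3 over all labels and 1 for the interaction between compounds, with no adjusted p for 14, 13, 13, 0 and 13 members. With a length offset the counts were 1 for RBI2 at 120 min, and 0 at 10 min and 2 over all labels between compounds. With only 4 libraries in the model they were 0 for RBI2 at 120 min, where the adjusted p of each called member was 0.301, and 0 at 10 min and 5 at 120 min between compounds. Without 1 library, the counts were 0 to 1 for CX-5461 at 10 min and RBI2 at 30 min, 0 to 4 for RBI2 at 120 min, and 0 to 1 at 10 min, 0 to 4 at 120 min and 0 to 4 over all labels between compounds. Without RBI2 120 min replicate 2 no member was called at 120 min in either comparison or over all labels. The fits without 1 library tested 19 to 25 members, and those with only 4 libraries 3 to 12. The cause of these changes was not tested.

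Replicate numbers did not pair the samples: same-numbered libraries deviated with correlations of -0.179 to 0.180 over 21 pairs of groups, 3 of them over 0.1. With the replicate block, members called numbered 5 for RBI2 at 120 min against the control, with RNVU1-28 added, and 0 at 10 min, 2 at 120 min, where ENSG00000201882 was lost, and 1 over all labels between compounds. With 14112299 to 24849354 reads a library, a member with few reads was not measurable at this depth.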
